A study of Homo sapiens with 6 samples.

Results

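The genes described here are the protein-coding genes of human chromosome 19 whose symbol is ZNF followed by a number, and that passed a CPM of 1 in 3 or more of the 6 libraries, CPM being the count scaled by library size. Of 246 genes with such symbols in the count table, 149 passed this filter and are called members below, out of 16974 genes tested in all. RNA abundance was measured by RNA-seq of total RNA in the colorectal adenocarcinoma line DLD-1, in whose cells both copies of TPR were tagged with an auxin-inducible degron and NeonGreen by gene editing, and in which TIR1, the plant ubiquitin ligase subunit that auxin needs, was expressed from the RCC1 locus. All 6 cultures received Leptomycin B, an inhibitor of the export receptor CRM1, at 200 nM for 3 h. The LMB group (3 libraries) received nothing else, and the LMB+auxin group (3 libraries) also received 1 mM auxin for the last 2 h to deplete TPR, a protein of the nuclear basket. The sample titles name 2 h for both groups, and the times given here are those of the incubation and treatment labels. Both groups were edited cells, and with no auxin-treated untagged cells among these libraries the action of auxin cannot be told apart from the loss of TPR. The degron acts on the protein, so the TPR message, at 157 to 192 CPM in all libraries, is no check of the depletion. In these bulk libraries, loss of a message from some cells and a lower level in every cell cannot be told apart. The libraries held 28261903 to 35992425 counts. The epithelial markers EPCAM, KRT8, KRT18, KRT19 and CDH1 were between 431 and 3640 CPM in all libraries, whereas PTPRC, COL1A1 and PECAM1, markers of leukocytes, fibroblasts and endothelium, stayed at or below 0.749 CPM.

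ZNF genes encode proteins with arrays of C2H2 zinc fingers, each of which can contact a few bases of DNA. Most of those on chromosome 19 arose by tandem duplication and lie in clusters, and many carry a KRAB domain, which recruits the scaffold TRIM28 and through it SETDB1, HP1 proteins and other silencing factors, often at transposable elements. In most of them 1 long last exon encodes all the fingers.

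The share of genes that passed the filter differed between stretches of the chromosome. Of the 97 genes that did not pass the filter, 27 were listed at 0 in all 6 libraries and 70 had at least 1 count. The filter took 30 of the 37 genes between ZNF101 and ZNF254 (chr19:19668796-24129968, GRCh38), a stretch of the short arm beside the centromere in which 14 genes were at 0, and it left 7. By contrast 20 of 24 genes remained between ZNF575 and ZNF296 (chr19:43525497-45076478), and none there was at 0. A count of 0 allowed at most 0.0834 to 0.106 CPM in these libraries, taking 3 counts as the limit and counting error alone. ZNF93, a repressor of LINE-1 elements, and ZNF331, an imprinted gene, were among those listed at 0. Just outside the filter lay ZNF540, with a mean CPM (± SD, n = 3) of 0.818 ± 0.110 in LMB against 0.563 ± 0.0542 in LMB+auxin, and ZNF675, with 0.608 ± 0.175 and 0.618 ± 0.0463. Just inside lay ZNF599, with 1.26 ± 0.179 and 0.889 ± 0.308, and ZNF837, with 1.01 ± 0.159 and 1.16 ± 0.366.

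**Figure D1:**
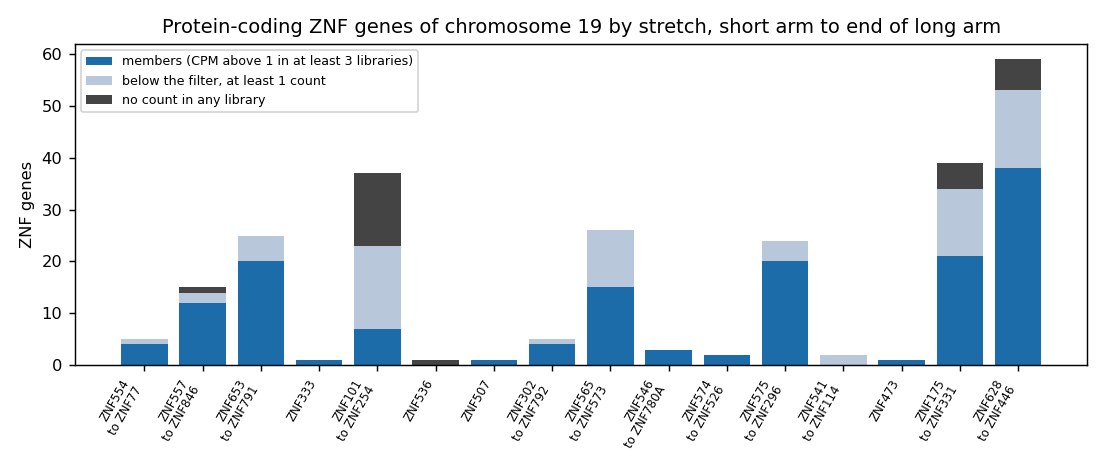
Number of protein-coding ZNF genes of chromosome 19 in each stretch (genes whose starts lie no more than 1 Mb apart), ordered from the short arm to the end of the long arm, split into members, genes below the filter with at least 1 count, and genes with no count. The stretch from ZNF101 to ZNF254 holds 37 genes, of which 7 are members, and the last stretch holds 59, of which 38 are members.

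Members were mostly low in level. The median level was 9.65 CPM over the 6 libraries, or 1.89 CPM per exonic kilobase, beside 5.47 CPM per exonic kilobase for all protein-coding genes tested. The highest per exonic kilobase were ZNF146 (31.7), which encodes fingers and no KRAB domain, ZNF121 (25.9) and ZNF460 (11.4). The lowest was ZNF91 (0.120), a repressor of SVA elements with the most fingers among members (31). None of these 4 was called by any fit. ZNF146 had 133, 124 and 120 CPM in LMB and 159, 123 and 129 CPM in LMB+auxin, so that the groups overlapped. ZNF121 had 212, 180 and 198 CPM against 202, 158 and 179 CPM, lower with auxin in all 3 pairs of libraries that share a replicate number but with overlapping groups. For ZNF91 the values were 1.45, 1.53 and 1.16 CPM against 1.21, 0.992 and 1.10 CPM, close to the filter.

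The comparison of LMB+auxin with LMB asked how loss of TPR altered RNA abundance while CRM1 was blocked. Calls required, in edgeR's quasi-likelihood test, a Benjamini-Hochberg adjusted p under 0.05 together with a change of 1.3-fold or more. No member was called by this fit, in which 0.00589% of all tested genes (1 gene) were. At an unadjusted p under 0.05, edgeR had 15 members lower and 3 higher, that is 10.1% and 2.01% of members, beside 3.35% and 1.02% of all tested genes. Of the 209 protein-coding ZNF genes on other chromosomes, 8.13% were lower and 0% higher by this rule. Of the 744 other protein-coding genes of chromosome 19, 4.57% were lower and 0.269% higher. With the same bars DESeq2 called 1 member, beside 0.0648% of all tested genes, and limma-voom 0, beside 0.00589%. DESeq2 with the replicate block called 1 member, beside 0.177% of all tested genes. The replicate numbers were taken to pair the libraries, least clearly for replicate 3. A fit with the number as a block called 4 members, all lower, beside 0.89% of all tested genes called lower and 0.3% called higher. In that blocked fit 37 members were lower and 11 higher at an unadjusted p under 0.05, beside 11.8% and 8.11% of all tested genes, that is 2002 and 1376 genes. At an adjusted p under 0.05 with no bar on the fold, 13 members were lower and 3 higher with the block, 8.72% and 2.01% of members, beside 3.27% and 1.12% of all tested genes. For ZNF genes on other chromosomes these shares were 7.66% and 0%, and for other protein-coding genes of chromosome 19 5.24% and 0.538%. The 16 members past this bar are shown in red in the plot by position.

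ZNF574, which encodes fingers and no KRAB domain, was called by more fits than any other member. It lies at chr19:42068477-42081552 on the plus strand, with 2 exons. It had 34.6, 33.0 and 31.8 CPM in LMB and 24.8, 23.8 and 24.3 CPM in LMB+auxin, so the groups did not overlap and the spread within each was small against the gap. The log2 fold change with the block was -0.45 ± 0.0624 (SE), a fall of 1.36-fold with an adjusted p of 7.08e-08, against an adjusted p of 0.440 in the edgeR fit without it. DESeq2 without the block also called it (adjusted p = 0.00440), limma-voom did not (0.394), and it stayed called with the block when both libraries of any 1 replicate number were left out.

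ZNF112, a KRAB gene in the cluster near 44 Mb (chr19:44326555-44367217, minus strand), had 3.70, 5.27 and 3.63 CPM in LMB and 2.66, 2.56 and 2.79 CPM in LMB+auxin. The groups did not overlap, and LMB replicate 2 stood above the other libraries. With the block, its log2 fold change came to -0.64 ± 0.135 (SE), or 1.56-fold lower (adjusted p = 0.000750, against 0.954 without the block). Without replicate 2 the value was -0.42 and the call was lost (adjusted p = 0.197). DESeq2 with the block did not call it either, giving -0.63 and no adjusted p.

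ZNF749 (chr19:57435325-57447101, plus strand) and ZNF551 (chr19:57681969-57717301, plus strand) are both KRAB genes of 3 exons in the last cluster of the long arm. ZNF749 had 11.1, 10.6 and 9.48 CPM in LMB and 9.36, 6.98 and 6.87 CPM in LMB+auxin. Its lowest LMB library lay just above its highest LMB+auxin library, and its blocked log2 fold change was -0.43 ± 0.0907 (SE; adjusted p = 0.000633, 0.954 without the block). ZNF551 had 43.0, 30.4 and 44.1 CPM in LMB and 34.5, 23.3 and 32.5 CPM in LMB+auxin. Here the groups overlapped, because replicate 2 was low in both, and each pair was lower with auxin by a similar amount. The blocked value of ZNF551 was -0.38 ± 0.0601 (SE; adjusted p = 2.44e-06, 0.954 without the block), just past the 1.3-fold bar. Both calls were lost when replicate 2 was left out (log2 fold changes of -0.35 and -0.37) and when replicate 3 was left out (-0.41 and -0.34), for ZNF551 by the bar on the fold alone. DESeq2 with the block called neither gene, with -0.43 and an adjusted p of 0.178 for ZNF749, and -0.37 and an adjusted p of 0.00148 for ZNF551, under the bar on the fold.

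No member was called higher over all 6 libraries. With the block, ZNF565 was called higher without both libraries of replicate 1 (0.39 ± 0.114 SE, adjusted p = 0.0465), and ZNF14 without those of replicate 3 (0.55 ± 0.145 SE, adjusted p = 0.0213). The 3 members that were higher at the adjusted p with the block over all libraries were ZNF627, ZNF565 and ZNF14, all with KRAB domains and all below 1.3-fold. ZNF627 (chr19:11559374-11619161, plus strand) had 29.9, 36.5 and 34.5 CPM in LMB and 38.3, 43.9 and 39.6 CPM in LMB+auxin, groups that did not overlap. Its blocked log2 fold change was 0.27 ± 0.0591 (SE; adjusted p = 0.00110, 0.954 without the block). ZNF565 had 6.36, 4.95 and 5.55 CPM against 7.41, 6.70 and 7.06 CPM (0.33 ± 0.102 SE; adjusted p = 0.0393 with the block). Of its exonic bases, 11.9% lie under a gene with a higher count, so a part of its reads may belong to that gene. ZNF14 had 4.42, 4.03 and 4.94 CPM against 6.70, 5.64 and 4.99 CPM, with pair 3 nearly level (0.36 ± 0.114 SE; adjusted p = 0.0479 with the block).

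**Figure D2:**
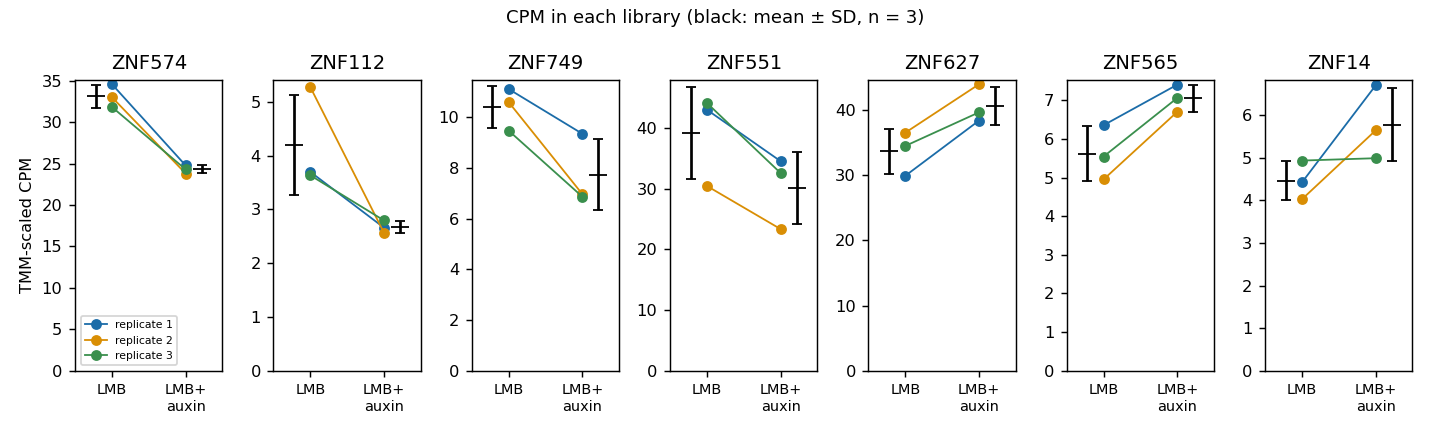
TMM-scaled CPM of the 4 members called with the replicate block and the 3 that were higher at an adjusted p under 0.05, in each library, with lines joining libraries that share a replicate number and black marks giving mean ± SD (n = 3). ZNF574 falls from 31.8 to 34.6 CPM down to 23.8 to 24.8 CPM, and ZNF551 keeps its distance within each pair although its groups overlap.

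The other lower members at this adjusted p were ZNF552, ZNF181, ZNF417, ZNF235, ZNF566, ZNF264, ZNF526, ZNF776 and ZNF780A, with blocked log2 fold changes from -0.37 to -0.24. ZNF776, for instance, had 41.7, 33.3 and 39.1 CPM in LMB and 33.0, 29.2 and 32.4 CPM in LMB+auxin (-0.27 ± 0.0599 SE, adjusted p = 0.00192 with the block). ZNF526, the neighbour of ZNF574 and likewise without a KRAB domain, had 13.5, 12.8 and 12.9 CPM against 10.6, 9.40 and 12.4 CPM (-0.28 ± 0.0823 SE, adjusted p = 0.0320 with the block). In both genes the groups did not overlap, with under 1 CPM between them. Near-identical copies limit some of these values. For ZNF417, 21.5% of the read-length windows of its transcript also occur in the transcript of another gene, mainly ZNF587, and for ZNF552 the share is 10.4%. In all, 9 members had such a share above 5%, and 8 had over 20% of their exonic bases under a gene of higher count, ZNF709 (76.6%), ZNF564 (65.9%) and ZNF223 (45.7%) among them.

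Among members at a mean of at least 2 CPM that moved one way in all 3 pairs, the 10 most negative log2 fold changes of the unblocked fit also held ZNF888 (-0.43), ZNF497 (-0.36) and ZNF709 (-0.35), and the 5 most positive also held ZNF223 (0.23) and ZNF564 (0.22). None of these 5 passed the adjusted p with the block (0.0793 to 0.218). ZNF497 had 3.70, 3.64 and 3.85 CPM against 2.66, 3.42 and 2.67 CPM, groups that did not overlap. Members with known roles did not pass either. ZNF274 has KRAB and SCAN domains and binds the last exons of other ZNF genes. It had 14.9, 14.6 and 14.0 CPM against 15.5, 15.8 and 13.5 CPM. ZNF473, a factor of histone pre-mRNA processing, had 27.2, 23.3 and 26.9 CPM against 28.0, 24.8 and 29.9 CPM. Both were near level between overlapping groups. ZNF507 (-0.11), ZNF296 (-0.13) and ZNF444 (-0.22) had small log2 fold changes below 0, with adjusted p of 0.281, 0.766 and 0.163 with the block.

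The sequences before the starts of the called genes are given because 3 of the 4 share an element that is common in this gene family. Each is the stretch from 250 bases before to 50 bases after the RefSeq start (GRCh38.p14), written in the direction of the gene, and capitals mark the motifs searched on both strands, GGGCGG (GC box), CCGGAAG (the core bound by ETS factors), ACTACANNNNCCA (part of the element bound by ZNF143 and THAP11) and AAGATGG (the core bound by YY1). The third was chosen after the sequences had been seen. The RefSeq starts of ZNF112 and ZNF627 lie inside the GENCODE genes given above. The windows are chr19:42068227-42068526 (plus strand) for ZNF574, chr19:44356655-44356954 (minus strand) for ZNF112, chr19:57435075-57435374 (plus strand) for ZNF749, chr19:57681727-57682026 (plus strand) for ZNF551, and chr19:11597233-11597532 (plus strand) for ZNF627, which is shown as the member with the lowest adjusted p among those that were higher.
ZNF574: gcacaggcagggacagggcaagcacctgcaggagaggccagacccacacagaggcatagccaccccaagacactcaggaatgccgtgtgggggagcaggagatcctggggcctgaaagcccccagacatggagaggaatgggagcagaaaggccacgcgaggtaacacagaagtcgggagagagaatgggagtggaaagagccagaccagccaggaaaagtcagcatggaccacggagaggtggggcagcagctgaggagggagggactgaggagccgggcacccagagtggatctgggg
ZNF112: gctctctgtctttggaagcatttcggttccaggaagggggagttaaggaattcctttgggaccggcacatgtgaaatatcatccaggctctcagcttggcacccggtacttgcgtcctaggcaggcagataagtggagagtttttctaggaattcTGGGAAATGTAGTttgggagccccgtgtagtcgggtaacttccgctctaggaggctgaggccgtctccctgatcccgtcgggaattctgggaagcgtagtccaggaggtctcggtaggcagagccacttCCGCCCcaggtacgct
ZNF749: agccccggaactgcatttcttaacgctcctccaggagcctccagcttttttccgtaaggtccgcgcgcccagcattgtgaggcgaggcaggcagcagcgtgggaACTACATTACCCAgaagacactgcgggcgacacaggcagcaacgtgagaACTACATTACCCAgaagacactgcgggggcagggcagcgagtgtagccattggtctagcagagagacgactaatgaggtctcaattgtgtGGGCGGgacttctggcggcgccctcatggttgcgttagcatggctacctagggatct
ZNF551: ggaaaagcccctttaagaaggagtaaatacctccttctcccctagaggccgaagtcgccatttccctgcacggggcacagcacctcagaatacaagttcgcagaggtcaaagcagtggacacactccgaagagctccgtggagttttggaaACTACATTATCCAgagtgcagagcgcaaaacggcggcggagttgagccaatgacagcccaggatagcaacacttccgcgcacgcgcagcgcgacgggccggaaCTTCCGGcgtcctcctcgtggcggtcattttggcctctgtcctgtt
ZNF627: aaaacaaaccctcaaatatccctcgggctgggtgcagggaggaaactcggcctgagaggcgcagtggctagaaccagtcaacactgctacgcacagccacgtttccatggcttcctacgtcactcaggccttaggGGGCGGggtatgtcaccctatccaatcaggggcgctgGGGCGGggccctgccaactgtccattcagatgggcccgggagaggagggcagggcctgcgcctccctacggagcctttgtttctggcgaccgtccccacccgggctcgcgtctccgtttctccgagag

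ZNF749 held ACTACANNNNCCA 2 times, ZNF112 and ZNF551 held it 1 time each, and the letters were in neither ZNF574 nor ZNF627. Over the 133 members with a promoter in the RefSeq table, 35 (26.3%) held it, beside 1.80% of all 35116 promoters and 3.09% of the promoters of protein-coding genes tested here. ZNF genes on other chromosomes held it in 16 of 175 promoters (9.14%). Within chromosome 19 it was in 11 of 17 promoters of the cluster from ZNF575 to ZNF296 and in 14 of 34 of the last cluster, and in 0 of 19 and 0 of 17 in the clusters from ZNF653 to ZNF791 and from ZNF175 to ZNF761. Tandem copies share their sequence, so these promoters are not independent of each other. CCGGAAG was in 39.8% of member promoters and 10.3% of all, GGGCGG in 66.9% and 45.0%, and AAGATGG in 9.02% and 5.84%. In the promoters of protein-coding genes tested here, CCGGAAG was in 16.7%, GGGCGG in 65.7% and AAGATGG in 6.998%. Beside these tested genes, GGGCGG was about as common in member promoters. Hits of different motifs shared bases in 1 member promoter. The median log2 fold change was -0.11 with ACTACANNNNCCA and -0.07 without it, and -0.11 with CCGGAAG and -0.05 without it, beside quartiles of -0.17 and 0.06 over all members.

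The median log2 fold change over members was -0.07 (quartiles -0.17 and 0.06), with 93 members lower and 56 higher, beside a median of -0.0027 over all tested genes. It was -0.06 for the 209 ZNF genes on other chromosomes and -0.07 for the 744 other protein-coding genes of chromosome 19, close to that of members. Lower genes made up 62.4% of members and 50.8% of all tested genes. They were 67.5% of ZNF genes on other chromosomes and 78.1% of other protein-coding genes of chromosome 19. In the CPM values 56 members (37.6%) were lower in all 3 same-numbered pairs and 29 (19.5%) were higher in all 3, beside 20.5% and 21.3% of all tested genes. For ZNF genes on other chromosomes these shares were 38.3% and 9.57%, and for other protein-coding genes of chromosome 19 33.7% and 5.78%. The groups did not overlap for 25 members that were lower and 5 that were higher (16.8% and 3.36%), beside 6.63% and 4.89% of all tested genes. This held for 13.4% and 1.44% of ZNF genes on other chromosomes, and 9.68% and 0.672% of other protein-coding genes of chromosome 19. The pairs were not alike. The median log2 ratio of LMB+auxin to LMB over members was -0.0052 in pair 1, -0.06 in pair 2 and -0.08 in pair 3. Over all tested genes it was -0.01, 0.01 and -0.00074, so members lay below them in pairs 2 and 3 and not in pair 1. Over the other protein-coding genes of chromosome 19 it was -0.18, -0.0073 and -0.03, under the members in pair 1 and above them in pairs 2 and 3.

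By position, 33 of the 93 lower members lay in the last cluster of the long arm, which held 38 of the 149 members. Members whose starts lay within 1 Mb of the next were joined into 15 clusters, of which 6 held at least 5 members, and the medians of 4 of these 6 were below that of all tested genes. This count fell to 2 without LMB replicate 1, without LMB+auxin replicate 2 or without LMB+auxin replicate 3. The last cluster, ZNF628 to ZNF446 (chr19:55476617-58481230), held 38 members with a median log2 fold change of -0.16, of which 33 were lower and 5 higher. Of all tested genes 50.8% were lower, and of other protein-coding genes of chromosome 19 78.1%. At an adjusted p under 0.05 with the block, 6 members of this cluster were lower (ZNF749, ZNF551, ZNF552, ZNF417, ZNF264 and ZNF776) and 0 higher. They were among the 16 members past this bar on the whole chromosome. Of all tested genes 3.27% were lower and 1.12% higher at this bar. The median of this cluster was negative in each pair (-0.22, -0.10 and -0.12). Of its 38 members, 25 were lower in all 3, beside 37.6% of all members and 20.5% of all tested genes. The 14 other protein-coding genes inside its bounds had a median of -0.14, with 12 lower.

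The other 5 clusters of at least 5 members had medians between -0.06 and 0.07. The 12 members from ZNF557 to ZNF846 (chr19:7069703-9793180) had a median of 0.07 with 8 higher, while the 32 other protein-coding genes between them had -0.10. The 20 members from ZNF653 to ZNF791 had -0.06, the 15 from ZNF565 to ZNF573 had -0.02, the 20 from ZNF575 to ZNF296 had -0.04, and the 21 from ZNF175 to ZNF761 (chr19:51571283-53461862) had 0.0090. In these 5 clusters the sign of the median differed between pairs. For the cluster from ZNF653 to ZNF791, for example, it was 0.08 in pair 1, -0.11 in pair 2 and -0.08 in pair 3. The pair of ZNF574 and ZNF526 near 42 Mb had the lowest median of any cluster (-0.36), the 4 members from ZNF181 to ZNF792 had -0.15, ZNF507 alone had -0.11, and the 4 members from ZNF554 to ZNF77 near the end of the short arm had the highest (0.11). Neighbours within a cluster differed by a median of 0.17 on the log2 scale over 134 pairs, close to the median over all pairs of members (0.17). Outside the last cluster, 111 members had a median of -0.03 with 60 lower.

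**Figure D3:**
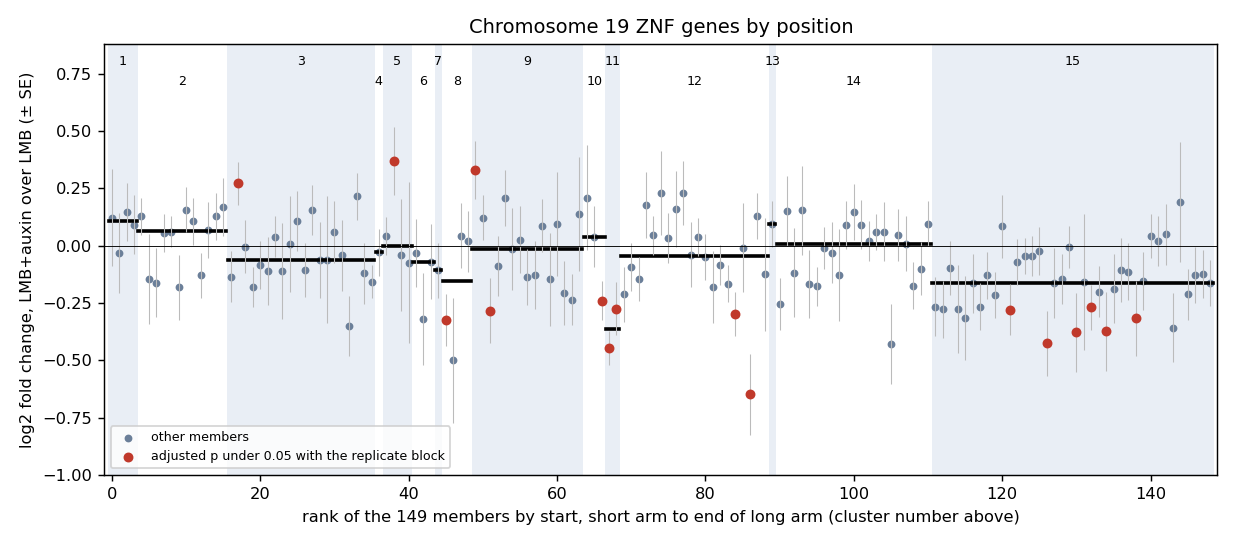
Log2 fold change (LMB+auxin over LMB, ± SE, edgeR without the block) of the 149 members ranked by start along the chromosome, with clusters shaded in turn and numbered, and black bars for cluster medians. Red points have an adjusted p under 0.05 with the replicate block. Of the 38 members in cluster 15, 33 lie below 0.

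Log2 fold changes were also ordered by the number of exons. The 29 members whose canonical transcript had 1 to 3 exons had a median log2 fold change of -0.19, and 27 of them were lower. Members of 4 exons (56) had -0.07, those of 5 exons (31) -0.02, and those of 6 or more (33) 0.05, with 11 lower. Other protein-coding genes, ZNF genes left out, ran in the same order over a narrower range, from -0.08 for 1 to 3 exons (1470 genes, 1089 lower) to 0.02 for 6 or more. Over members, the log2 fold change and exon number had a Spearman rho of 0.41 (Pearson r = 0.35, 149 genes that share the same libraries and are not independent). Members of 1 to 3 exons were lower in each pair by median (-0.31, -0.11 and -0.14), with 20 of 29 lower in all 3. Other protein-coding genes of 1 to 3 exons were also lower in each pair (-0.12, -0.08 and -0.06), with 628 of 1470 lower in all 3. Of the 29 members, 21 belonged to the last cluster, where members of 1 to 3 exons had a median of -0.27 and the 17 of more exons -0.12. The 8 members of 1 to 3 exons elsewhere had -0.14, with 7 lower.

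Base composition set apart only the lowest exon class. The median GC content was 57.8% for members of 1 to 3 exons. It was 42.1%, 42.1% and 42.8% for members of 4, 5 and 6 or more exons. Members of at least 50% GC in the canonical transcript (30 genes) had a median of -0.15, and 24 of them were lower. The other 119 had a median of -0.03, with 69 lower. For other protein-coding genes the medians were -0.05 at or above 50% GC and 0.05 below it, so members lay under the other genes in both classes. Within a class the genes were not matched for GC or exon number. The median exon number was 4 for members and 9 for all protein-coding genes tested. The gap between GC classes of members was widest in pair 1, where the medians were -0.30 and 0.03. It was smaller in pair 2 (-0.10 and -0.04) and in pair 3 (-0.09 and -0.06). Among members under 50% GC, the 13 of 1 to 3 exons had a median of -0.19 with 12 lower, and the 106 of more exons had -0.01 with 57 lower. Other protein-coding genes under 50% GC had -0.05 for 1 to 3 exons and 0.06 for 4 or more. The part of composition in the results was not tested. By number of fingers, the 41 members of 9 or fewer had a median of -0.13 with 30 lower, the 59 of 10 to 14 had -0.04 and the 49 of 15 or more had -0.03, while the Spearman rho against the log2 fold change was 0.04. The members of 9 or fewer fingers had a median GC content of 51.1%, beside 43.1% and 41.8% in the other classes.

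**Figure D4:**
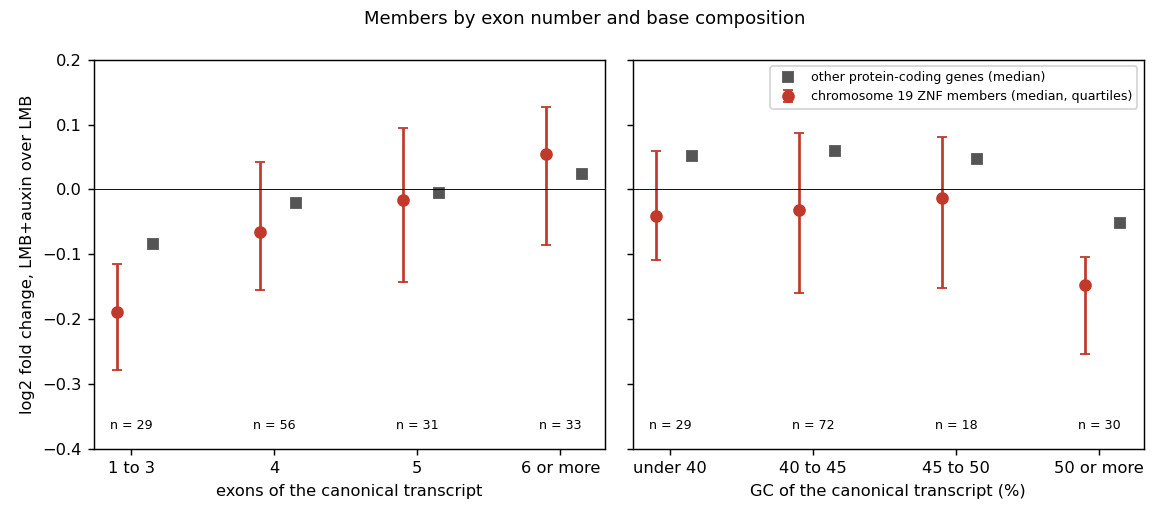
Median log2 fold change (LMB+auxin over LMB) of members by exon number (left) and GC content (right) of the canonical transcript, with quartiles as bars, and the median of other protein-coding genes of the same class as grey squares. Members run from -0.19 at 1 to 3 exons to 0.05 at 6 or more.

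By domain, 122 members matched the patterns of a KRAB A box and 27 did not. Members with KRAB had a median of -0.03 (69 lower of 122), and those without had -0.15 (24 lower of 27). Most of the 27 are rich in GC and have few exons, with medians of 63.5% GC and 3 exons beside 42.5% and 4 exons with KRAB. Below 50% GC, the 6 members without KRAB had a median of -0.10 and the 113 with KRAB -0.03. At or above it, the 21 members without KRAB had -0.16 with 20 lower, and the 9 with KRAB had 0.02 with 4 lower. These 21 had medians of 65.4% GC and 3 exons, and these 9 had 52.3% and 4 exons. The split at 50% thus did not match them for GC or exon number. The class without KRAB includes ZNF574, ZNF526, ZNF146 and ZNF121, which differ widely in level. A SCAN box, a dimerisation domain, was found in 3 members, ZNF274, ZNF444 and ZNF446, with log2 fold changes of 0.04, -0.22 and -0.16.

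**Figure D5:**
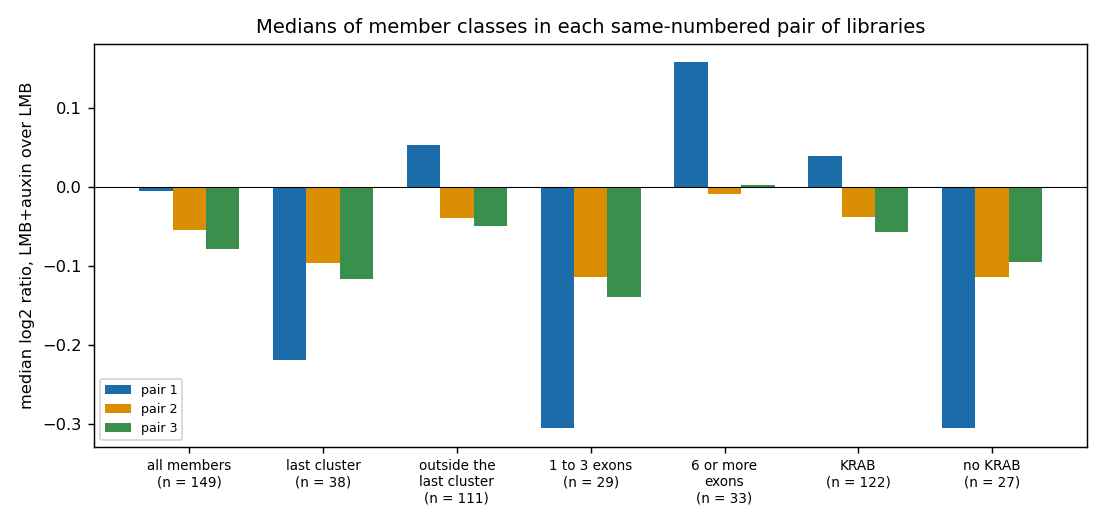
Median log2 ratio of LMB+auxin to LMB (CPM with 0.5 added) over classes of members in each pair of libraries with the same replicate number. The last cluster, members of 1 to 3 exons and members without KRAB are below 0 in all 3 pairs, while members with KRAB are above 0 in pair 1 (0.04) and below it in pairs 2 and 3.

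The partners through which KRAB proteins silence DNA had small log2 fold changes. All 18 listed genes were tested. None was called by edgeR with or without the block, by DESeq2 or by limma-voom, and 0 passed an unadjusted p under 0.05 in the edgeR fit without the block (1 lower and 3 higher with it). Their log2 fold changes ran from -0.12 (UHRF1, a reader of hemimethylated DNA) to 0.14 (HDAC2, a histone deacetylase). Of the 18 genes, 13 were higher and 5 lower, with a median of 0.06 beside 0.0070 over all protein-coding genes tested. TRIM28, the KRAB scaffold, had 621, 634 and 622 CPM in LMB and 530, 634 and 611 CPM in LMB+auxin. Only LMB+auxin replicate 1 stood below the rest, and the blocked log2 fold change was -0.08 ± 0.0436 (SE; adjusted p = 0.265).

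Zinc finger genes of chromosome 19 with other symbols were listed only as ZFP, ZSCAN, ZIM, ZIK or ZKSCAN plus a number, or PEG3. Of these 16 listed genes, 5 passed the filter. None was called by any of these fits, and 1 was lower at an unadjusted p under 0.05 by edgeR (2 with the block). ZFP36 had a blocked log2 fold change of -0.32 ± 0.0676 (SE; adjusted p = 0.000634), below the 1.3-fold bar, and it encodes a CCCH zinc finger protein that destabilises AU-rich messages rather than a C2H2 factor. ZSCAN22 (-0.29) and ZFP30 (-0.17) lie in the ZNF clusters and had adjusted p of 0.105 and 0.382 with the block, and ZSCAN5A was level at 0.01.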

How the data were processed

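The study sequenced ribosome-depleted, stranded libraries of 101-base paired reads and, in 3 independent biological replicates per group, counted them per Ensembl gene on GRCh38. The deposited values are raw counts per gene, which the authors made with STAR and featureCounts. The submitters' processing notes name CASAVA 1.8.2, STAR 2.6.1c and featureCounts 1.5.2. How strand and multiply matching reads were handled is not given in the sources used here, so values of overlapping genes and of near-identical copies are uncertain. No normalization had been applied. Groups came from the treatment in the labels.

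Gene symbols, positions, exons and GC content of canonical transcripts came from GENCODE 44 (same assembly, later release). Domains were searched by pattern in proteins translated from those transcripts, in place of the RefSeq proteins first planned. Counts were TMM-scaled and tested by quasi-likelihood F-tests in edgeR 4.0.16 (R 4.3.3), on 16974 genes with more than 1 CPM in at least 3 libraries, with Benjamini-Hochberg adjustment over all of them and a 1.3-fold bar. The test was checked on simulated counts. The replicate numbers were taken to pair the libraries. Deviations from the group means correlated at 0.531, 0.691 and 0.273 between same-numbered libraries, each above the bar of 0.1. Among differently numbered libraries, LMB 1 with LMB+auxin 3 (0.146) and LMB 3 with LMB+auxin 1 (0.142) also passed this bar. The rest lay from -0.573 to -0.300. Pairing was weakest for replicate 3. Values with the number as a block are printed beside the others. Alternatives were DESeq2 1.42.0, limma-voom (limma 3.58.1), other scalings and filters, each library left out, and genes overlapped by another left out. Total counts ran from 28261903 to 35992425 per library. CPM values are TMM-scaled. SE values come from the edgeR fits, which include variation between libraries, and SD values are over the 3 libraries of a group. The limit for a count of 0 covers counting error only.

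Genes named were every member called, the 10 most negative and 5 most positive log2 fold changes among members of at least 2 CPM with 1 sign in all 3 pairs, 9 genes of known role where they were members, the 3 highest levels per exonic kilobase, the 2 genes on either side of the filter, and TRIM28. ZNF526, ZNF776 and the other members past the adjusted p with the block, and the examples listed at 0 or under 0.05 in a list, were named after their values were seen. The members and lists were chosen with earlier results of these data known, so no chance test was made on them.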

Additional observations from a re-analysis of the deposited data

How the results depend on the processing

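Without the replicate block no member was called in the edgeR fits, except that 1 was (ZNF574) with no filter on low counts, and DESeq2 also called 1, with or without the block. The block gave 4 calls (ZNF574, ZNF112, ZNF749 and ZNF551), changed no call in either gene list, and had 37 members lower and 11 higher at an unadjusted p under 0.05, beside 11.8% and 8.11% of all tested genes. With library size alone the blocked fit gave 5 calls (1.49% of all tested genes), 42 lower (13.9%) and 8 higher (5.88%), and without overlapped genes 4 calls (1.18%), 36 lower (12.1%) and 9 higher (8.22%). Leaving out libraries, singly or as a pair with the block, gave 0 to 8 calls (up to 0.945% of all tested genes). Of these, ZNF565 and ZNF14 were each higher in 1 blocked fit. At an unadjusted p under 0.05, 6 to 35 members were lower (6 to 22 for single libraries) and 1 to 7 higher. Over all tested genes the shares in these fits were 1.55% to 9.8% lower and 0.643% to 6.41% higher. The median of the members ran from -0.11 to -0.02. Of the 6 larger clusters, 2 to 5 were below the median of all genes. The fits with 2 clusters below it left out LMB replicate 1, LMB+auxin replicate 2, LMB+auxin replicate 3 or both libraries of replicate 2, so the count of 4 clusters rests on these libraries. The median of the members stayed below 0 in all 20 alternative fits, and that of members without KRAB minus members with KRAB ran from -0.20 to -0.07. Of 27 named genes, 3 changed sign in any fit. ZNF296 was at 0.044 and 0.14 without both libraries of replicate 1 or without LMB replicate 1 (-0.27 to 0.14 over single libraries), ZNF460 at 0.0052 and 0.0044 without both libraries of replicate 3 or without LMB+auxin replicate 3, and ZNF837 at -0.081 without LMB+auxin replicate 2 (-0.081 to 0.35). At a mean under 5 CPM, counting error limits what can be seen. Named genes at this level include ZNF112, ZNF888, ZNF709, ZNF497, ZNF91, ZNF296, ZNF599 and ZNF837. The part of each left-out library in these changes was not tested.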

Other observations

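The ZNF-named pseudogenes of chromosome 19 were outside the member rule. Of 19 listed in the table, 4 passed the same filter, ZNF887P, ZNF833P, ZNF788P and ZNF321P, and 0 were called by edgeR with or without the block. All 4 had positive log2 fold changes (0.11, 0.23, 0.11 and 0.09) and none reached an unadjusted p under 0.05 in the edgeR fit without it. ZNF833P had 3.11, 2.33 and 2.97 CPM in LMB and 3.80, 2.67 and 3.36 CPM in LMB+auxin, higher in each same-numbered pair while the groups overlapped.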
